A study of Mus musculus with 38 samples.

Results

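The genes described here are 33 genes of cholesterol and fatty acid metabolism, taken by symbol from the 45706 genes counted in primary mouse embryonic fibroblasts. The rule was a list of targets and regulators of the transcription factors SREBP and LXR, and all 33 were found in both count tables. By role, 7 belong to the mevalonate arm of cholesterol synthesis (Acat2, Hmgcs1, Mvk, Pmvk, Mvd, Idi1, Fdps). Another 11 belong to the sterol arm that follows it (Fdft1, Sqle, Lss, Cyp51, Tm7sf2, Msmo1, Nsdhl, Hsd17b7, Ebp, Sc5d, Dhcr7). The SREBP factors and the proteins that hold or carry them make up 5 (Srebf1, Srebf2, Scap, Insig1, Insig2), and the LXR receptors with their targets another 5 (Nr1h2, Nr1h3, Abca1, Abcg1, Mylip). The others are the sterol carrier Stard4, the oxysterol synthase Ch25h and 3 enzymes of fatty acid synthesis (Fasn, Scd1, Scd2).

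SREBP factors are made as membrane proteins of the endoplasmic reticulum. When sterols are scarce, SCAP carries them to the Golgi, where they are cut, and the released part turns on the genes of cholesterol and fatty acid synthesis. INSIG proteins hold SCAP back when sterols are plentiful. LXR receptors are switched on by oxysterols, which are oxidised forms of cholesterol, and turn on export pumps. Ch25h, cholesterol hydroxylase, makes an oxysterol that both holds SREBP back and activates LXR, and the gene is known as an early response gene of innate immunity.

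The fibroblasts were from embryos of the strain C57BL/6 and were either wild-type (WT) or homozygous for RelA-TA-KI, a knock-in allele of the NF-kB subunit RelA. Going by the series title, TA stands for transactivation. The changed protein cannot be seen in gene counts, so the genotype rests on the labels. All cells, controls included, were kept in low-serum medium overnight. They were then left untreated or given TNF at 10 ng/ml, LPS at 100 ng/ml or Poly(I:C) at 20 ug/ml for 0.5, 1, 3 or 8 h. The untreated libraries are labelled 0 h, and no untreated library has a later time. In changes against untreated cells the agent and the added hours in culture therefore cannot be told apart. TNF is an inflammatory cytokine, LPS a bacterial cell wall component sensed by TLR4, and Poly(I:C) a mimic of viral double-stranded RNA. One table holds the TNF course, 20 libraries with 2 for each genotype and time. A second table holds the LPS and Poly(I:C) courses, 18 libraries with 1 for each genotype and condition and its own untreated library per genotype. The labels do not say whether replicates came from separate embryos or cultures, so p-values measure the spread between these samples, which may be technical. The tables were scaled separately, and no test was made across them. The sample titles do not say whether they were sequenced together.

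Libraries held 6715022 to 9590932 counts in the TNF table and 7021799 to 9431334 in the second. Levels are given as CPM, counts per 1000000 of the scaled library size. The 10 fibroblast markers summed to 30640 to 46940 CPM and 43220 to 81260 CPM in the 2 tables. The 16 macrophage markers, all detected, summed to 1136 to 4381 CPM in the TNF table and 3769 to 6323 CPM in the other, Lyz2 the highest, so the cultures were not fibroblasts alone. Among the LXR members and Ch25h are genes that macrophages also express, and the marker sums are given beside them. With bulk RNA, fewer cells of a type and less RNA per cell cannot be told apart. In the TNF table, replicate 2 had the higher macrophage sum in all 10 pairs of replicates. In the RelA-TA-KI cells, replicate 2 had the lower level of 15 to 18 of the 18 synthesis genes at each time, and in WT cells of 15, 13 and 15 of them untreated and at 3 and 8 h but of 4 and 3 at 0.5 and 1 h.

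Upstream sequences of 4 members are shown because the results turn on these genes: Hmgcs1 stands for the synthesis genes, Insig1 and Insig2 moved in opposite directions, and Ch25h rose in all courses. They are from RefSeq on GRCm38.p6 and run 5′ to 3′ on the gene's strand. Except for Insig1, they end at the base before the start. For Insig1 only the 201 bases outside the gene, by the gene positions deposited with the counts, are given. Capitals mark 2 motifs searched on both strands, which do not overlap here: the sterol regulatory element core TCACNCCAC and the CCAAT box, which reads ATTGG where it lies on the other strand. The windows are chr13:119690101-119690350, plus strand, for Hmgcs1, chr5:28071162-28071362, plus strand, for Insig1, chr1:121332590-121332839, minus strand, for Insig2, and chr19:34475149-34475398, minus strand, for Ch25h.
Hmgcs1: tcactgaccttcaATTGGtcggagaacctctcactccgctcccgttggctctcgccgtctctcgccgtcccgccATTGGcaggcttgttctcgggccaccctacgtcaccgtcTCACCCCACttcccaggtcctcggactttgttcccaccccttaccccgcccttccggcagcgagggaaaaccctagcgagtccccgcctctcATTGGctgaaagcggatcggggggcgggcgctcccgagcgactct
Insig1: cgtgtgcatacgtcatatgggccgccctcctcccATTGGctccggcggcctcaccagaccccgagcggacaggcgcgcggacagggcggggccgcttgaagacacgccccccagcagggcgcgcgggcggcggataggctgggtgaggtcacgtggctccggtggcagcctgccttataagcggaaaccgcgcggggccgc
Insig2: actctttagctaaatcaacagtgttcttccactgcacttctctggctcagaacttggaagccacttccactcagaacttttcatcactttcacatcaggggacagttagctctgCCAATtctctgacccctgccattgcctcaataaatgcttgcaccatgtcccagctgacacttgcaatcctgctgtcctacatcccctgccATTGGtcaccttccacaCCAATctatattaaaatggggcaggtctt
Ch25h: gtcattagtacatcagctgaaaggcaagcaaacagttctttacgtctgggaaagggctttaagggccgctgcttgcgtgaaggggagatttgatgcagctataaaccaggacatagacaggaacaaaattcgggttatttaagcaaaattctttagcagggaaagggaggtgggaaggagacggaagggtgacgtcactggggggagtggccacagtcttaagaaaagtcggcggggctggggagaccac

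Hmgcs1 carried 1 sterol element core, from base -137 to -129, and 3 CCAAT boxes. Insig1 carried 1 CCAAT box and Insig2 3, with no sterol element core of these letters, and Ch25h carried neither motif. Insig2 has 3 promoters in the RefSeq table, and the one nearest the start of the gene as deposited with the counts is printed. RefSeq promoters were found for 26 of the 33 members, 35 promoters in all, and their 250 upstream bases were searched. A CCAAT box stood in 21 of the 35 (60.0%), against 33.85% of all 32851 promoters in the table. The sterol element core stood in the Hmgcs1 promoter alone among the members, and in 1.053% of all promoters. Both strands were also searched for 2 longer consensus motifs. The NF-kB consensus stood in 5 of the 35 member promoters (those of Ebp, Insig2, Mvk, Pmvk and Srebf1), or 14.3%, against 7.251% of all, and the LXR direct repeat in 0 of them and 0.024% of all. The Insig2 match lay in 1 of the 2 promoters of that gene that are not printed, and none of the 4 printed sequences held either motif. These forms replaced other forms of the motifs after their results had been seen. The first NF-kB form, which neither contains nor is contained in the second, stood in 1 of the 35, that of Mvd, and in 1.412% of all promoters, and the first LXR form in 0 and in 0.015%. The NF-kB count among the members therefore turns on which form is searched.

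Per kilobase of exon, the desaturase Scd2 was the highest member in untreated cells of the TNF table at 608 CPM per kb, before Scd1 at 158 and Hmgcs1 at 149. Cyp51 followed at 87.3 and Srebf2 at 60.2 CPM per kb. The lowest were Nr1h3, which codes for LXR alpha, at 0.632 and Idi1 at 0.959 CPM per kb. Ch25h stood at 7.15 CPM per kb. In the untreated libraries of the second table the order was led by Scd2, Hmgcs1 and Scd1 at 211, 50.1 and 41.7 CPM per kb. Counts of some members may include reads of near-identical transcripts: of the 50-base windows of Acat2, 39.1% also occur in Acat3, and 26.19% of those of Fdps and 17.67% of those of Idi1 occur in other genes' transcripts.

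Ch25h rose with TNF at all 4 times in WT cells and at 0.5, 3 and 8 h in RelA-TA-KI cells, and averaged over the course it was higher in WT cells. WT libraries held 10.9 and 10.5 CPM untreated, 31.2 and 30.0 at 0.5 h, 34.9 and 31.5 at 1 h, 54.0 and 70.7 at 3 h and 79.9 and 106 at 8 h. RelA-TA-KI libraries held 9.34 and 7.88 CPM untreated, then 21.5 and 23.8, 14.2 and 13.2, 19.8 and 27.9 and 31.4 and 44.5 at the same times. At each time both WT libraries were above both RelA-TA-KI libraries, and within each genotype all treated libraries were above the untreated ones. In WT cells the edgeR test gave 2.87-fold at 0.5 h (log2 fold change 1.52, SE 0.22, adjusted p = 0.00137), and it was the only member called of 33 there, where 0.91% of all 13843 genes were called higher. At 1 h it was again the only one (log2 fold change 1.64, SE 0.22, adjusted p = 0.000262; 2.57% of all genes higher), and the rise reached 8.72-fold at 8 h (log2 fold change 3.12, SE 0.21, adjusted p = 1.36e-07). In RelA-TA-KI cells Ch25h was the only member called at 0.5 h (log2 fold change 1.40, SE 0.23, adjusted p = 0.00537; 0.831% of all genes higher). At 1 h its level stood between those of 0.5 h and of untreated cells and was not called (log2 fold change 0.68, SE 0.24, adjusted p = 0.155), and it was called at 3 h (log2 fold change 1.47, SE 0.23, adjusted p = 0.0007) and 8 h (log2 fold change 2.14, SE 0.22, adjusted p = 4.19e-06).

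Averaged over the 5 times, Ch25h was lower in RelA-TA-KI than in WT cells (log2 fold change -0.94, SE 0.09, adjusted p = 1.79e-05). This average takes the libraries of the 5 times as independent samples of a genotype. Same-numbered libraries deviated together within a genotype, so its SE and p-value may be too small. The difference between the genotypes' responses did not pass the test at any time, being -0.96 at 1 h (SE 0.33, adjusted p = 0.913), -1.08 at 3 h (SE 0.31, adjusted p = 0.17) and -0.98 at 8 h (SE 0.31, adjusted p = 0.071). The call in RelA-TA-KI cells at 0.5 h was lost without untreated replicate 2 (1.27, adjusted p = 0.117) or 0.5 h replicate 2 (1.32, adjusted p = 0.0671). A gene annotated on the opposite strand overlaps 159 exon bases of Ch25h, and the strand setting of the counting is not given in the sources used here.

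**Figure D1:**
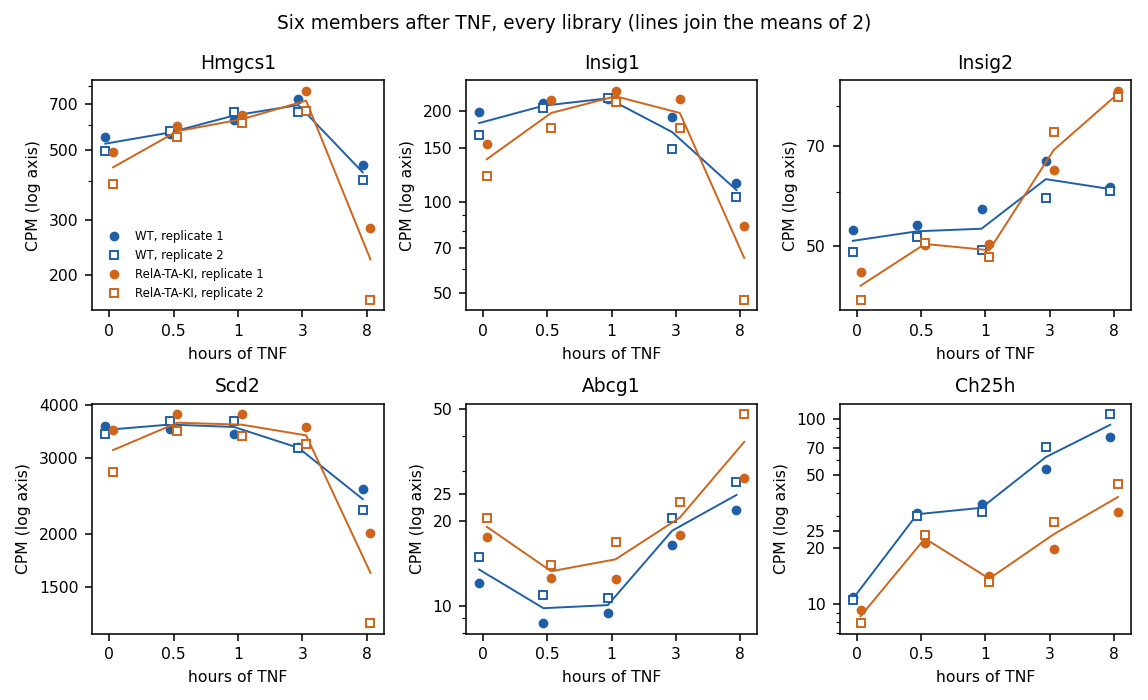
CPM of 6 members in every library of the TNF table, on a log axis, against hours of TNF (times spaced evenly); filled points are replicate 1, open squares replicate 2, and lines join the means of 2. Hmgcs1, Insig1 and Scd2 are lowest at 8 h in both genotypes, Insig2 at 8 h is higher in the 2 RelA-TA-KI libraries (84.3 and 82.6) than in WT (61.0 and 60.2), and Ch25h is higher in WT at each time.

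In the first hour of TNF none of the 18 genes of the mevalonate and sterol arms was called by edgeR in either genotype. At an unadjusted p below 0.05 there were 0 and 0 in WT cells at 0.5 and 1 h, and 7 and 8, all above 0, in RelA-TA-KI cells. Of all 13843 genes 1238 and 2037 were below 0.05 in WT cells. In RelA-TA-KI cells 2177 and 2470 were, 1198 and 1306 of them with a change above 0. The median log2 change of the 18 genes was 0.07 and 0.10 in WT cells, and 0.38 and 0.40 in RelA-TA-KI cells, where the 4 medians of all genes lay from -0.008 to -0.004. In the RelA-TA-KI cells no member was called at 1 h, while 2% of all genes were called higher. An unadjusted p below 0.05 was found there for 13 members and 2470 of all 13843 genes, and DESeq2 called 2 members. Without either RelA-TA-KI library of 8 h edgeR called 3. Samples with the same replicate number deviated together within a genotype, and with the number as a block within genotype 19 and 17 members were called in RelA-TA-KI cells at 0.5 and 1 h (14.8% and 15.9% of all genes), against 2 and 3 in WT cells (4.36% and 10.1%).

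At 3 h of TNF, 9 members rose and 1 fell in RelA-TA-KI cells, where 10.9% and 8.08% of all genes did. All 18 synthesis genes had a change above 0 there, with a median of 0.50, and 6 of them rose. Hsd17b7, a reductase of the sterol arm, went from 123 and 80.0 CPM untreated to 218 and 184 CPM (log2 fold change 0.99, SE 0.25, adjusted p = 0.0148). Hmgcs1, which makes HMG-CoA at the head of the pathway, went from 492 and 390.0 to 774 and 665 CPM (log2 fold change 0.71, SE 0.18, adjusted p = 0.0132). Sc5d, a sterol desaturase, went from 110.2 and 85.3 to 172 and 142 CPM (log2 fold change 0.68, SE 0.16, adjusted p = 0.0104). For these genes both treated libraries were above both untreated ones. The others that rose were Cyp51, the lanosterol demethylase (0.59), Sqle, squalene epoxidase (0.58), Pmvk, phosphomevalonate kinase (0.44), Srebf2 (0.31), Insig2 and Ch25h, and Mylip fell.

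In WT cells at 3 h no synthesis gene was called by edgeR. At an unadjusted p below 0.05 there were 2 synthesis genes and 4001 of all 13843 genes. By edgeR 2 members rose (Ch25h, Insig2) and 1 fell (Srebf1), where 9.32% and 6.36% of all genes did. The WT median over the 18 synthesis genes was 0.16, and 14 of 18 were above 0. Hmgcs1 in WT cells was at 550.4 and 499 CPM untreated and 729 and 664 CPM at 3 h (log2 fold change 0.41, SE 0.17, adjusted p = 0.137). No member's response at 3 h was called different between the genotypes by edgeR or DESeq2, where edgeR called 0.932% of all genes. At an unadjusted p below 0.05 there were 3 members and 1460 of all 13843 genes. The fitted difference of responses was above 0 for 17, 18 and 17 of the 18 synthesis genes at 0.5, 1 and 3 h, and these 3 comparisons share the untreated libraries. At 0.5 and 1 h Hmgcs1 was at 564 and 574 and at 626 and 664 CPM in WT cells and at 598 and 553 and at 646 and 608 CPM in RelA-TA-KI cells. At 3 h its levels overlapped between the genotypes, while the untreated RelA-TA-KI libraries (492 and 390.0 CPM) were below the untreated WT ones (550.4 and 499 CPM).

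The count in RelA-TA-KI cells at 3 h was 23 with the replicate block within genotype (35.3% of all genes) and 10 in WT cells (27.8%), and 6 responses then differed (7.48%). The RelA-TA-KI count was 2 without 3 h replicate 1, 4 without untreated replicate 2, 17 without either 8 h library, and 0 when replicate 2 was left out at all RelA-TA-KI times. The WT count was 1 without 3 h replicate 1 or untreated replicate 2, and 5 without either RelA-TA-KI library of 8 h. Of the RelA-TA-KI calls, Ch25h and Insig2 were kept when each of the 20 libraries was left out in turn, and the other 8 reached adjusted p of 0.0651 to 0.291 in their least favourable case. Of the WT calls Ch25h alone was kept in all, and Insig2 and Srebf1 reached 0.206 and 0.214.

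By 8 h of TNF all 18 synthesis genes had a change below 0 in both genotypes. The median was -0.38 in WT and -0.59 in RelA-TA-KI cells, against -0.014 and -0.016 over all genes tested. In WT cells 3 of the 18 fell, and in RelA-TA-KI cells 11 did. Over all 33 members, 2 rose and 7 fell in WT cells (12% and 8.8% of all genes), and 5 rose and 18 fell in RelA-TA-KI cells (21.6% and 20.5%).

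In the mevalonate arm, Mvd, the decarboxylase that ends it, went from 71.4 and 57.0 to 46.2 and 41.0 CPM in WT cells (log2 fold change -0.55, SE 0.17, adjusted p = 0.0297) and from 52.1 and 46.9 to 29.9 and 18.1 CPM in RelA-TA-KI cells (log2 fold change -1.05, SE 0.18, adjusted p = 0.000312). Hmgcs1 in WT cells was at 448 and 402 CPM (log2 fold change -0.30, SE 0.18, adjusted p = 0.252). In RelA-TA-KI cells it was at 282 and 166 CPM (log2 fold change -0.98, SE 0.18, adjusted p = 0.000567), below each of the 8 other RelA-TA-KI libraries. Pmvk fell in both genotypes (log2 fold changes -0.49 and -0.58). Acat2, Mvk and Fdps fell in RelA-TA-KI cells (-0.67, -0.66 and -0.66) and were at -0.38, -0.43 and -0.27, not called, in WT. Idi1, at 1.13 to 5.93 CPM in all 20 libraries, was not called in either.

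In the sterol arm, Dhcr7, the last reductase of cholesterol synthesis, fell in both genotypes. WT libraries went from 60.3 and 66.6 to 43.9 and 43.4 CPM (log2 fold change -0.54, SE 0.15, adjusted p = 0.0222) and RelA-TA-KI libraries from 59.7 and 56.9 to 33.5 and 21.9 CPM (log2 fold change -1.08, SE 0.16, adjusted p = 0.000117), with no overlap in either. Sqle (-0.67), Fdft1, squalene synthase (-0.60), Tm7sf2, a sterol reductase (-0.57), and Cyp51 (-0.52) fell in RelA-TA-KI cells and were not called in WT, at -0.28, -0.27, -0.57 and -0.38. Lss, Msmo1, Nsdhl, Hsd17b7, Ebp and Sc5d were called in neither, at -0.57 to -0.13 in WT and -0.58 to -0.05 in RelA-TA-KI cells. Stard4, which moves cholesterol between membranes, went from 102 and 86.1 to 63.7 and 39.5 CPM in RelA-TA-KI cells (log2 fold change -0.87, SE 0.17, adjusted p = 0.000996) and from 118 and 102 to 90.4 and 85.3 CPM in WT (log2 fold change -0.32, SE 0.16, adjusted p = 0.197). In RelA-TA-KI cells at 8 h, replicate 2 was the lower of the pair for all 18 synthesis genes. Its macrophage markers summed to 4381 CPM, against 2342 CPM in replicate 1, and their part in these falls was not tested. Fdft1 shares 767 exon bases with Ctsb on the opposite strand, and 9.87% of the windows of Tm7sf2 occur in Vps51.

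**Figure D2:**
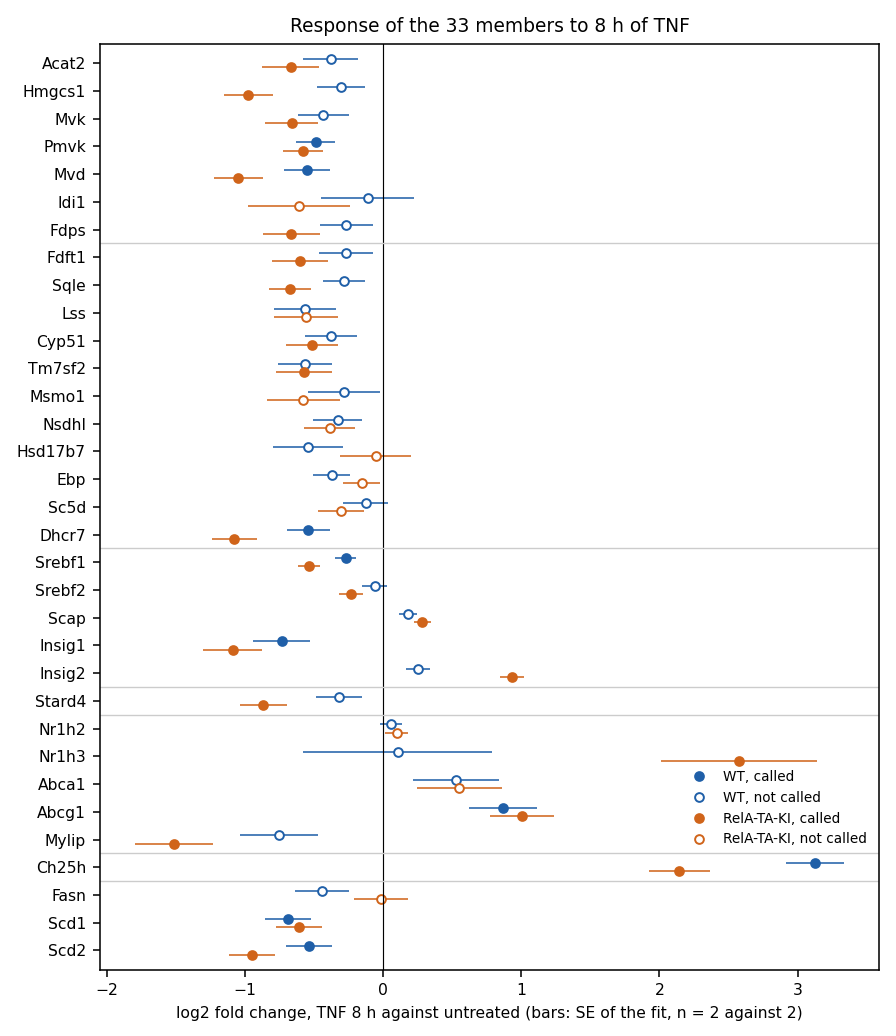
Log2 fold change of each of the 33 members between 8 h of TNF and untreated cells, with bars of 1 SE of the edgeR fit (2 libraries against 2), WT in blue and RelA-TA-KI in orange; filled points passed an adjusted p of 0.05. The 18 synthesis genes, in the upper 2 blocks, all lie below 0 in both genotypes, with 3 filled in WT and 11 in RelA-TA-KI.

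In WT cells the count of 9 at 8 h became 25 with the replicate block within genotype (32.8% of all genes), and the count of 23 in RelA-TA-KI cells became 28 (53.3%). The count was 5, 4, 4 and 2 in WT cells without untreated replicate 1, untreated replicate 2, 8 h replicate 1 and 8 h replicate 2, in that order. In RelA-TA-KI cells it was 15 without untreated replicate 1, 12 without 8 h replicate 2 and 12 without replicate 2 at all times. When each of the 20 libraries was left out in turn, 12 of the 23 RelA-TA-KI calls were kept throughout, among them Mvd, Hmgcs1, Dhcr7, Sqle, Insig1, Insig2, Stard4 and Scd2. The other 11 reached adjusted p of 0.0664 to 0.5, most often without 8 h replicate 2. Of the 9 WT calls Ch25h alone was kept throughout, and the other 8 reached 0.0731 to 0.221.

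Among the SREBP genes, Insig1 fell and Insig2 rose in RelA-TA-KI cells at 8 h. Insig1, itself a target of SREBP, stood in WT cells at 198 and 166 CPM untreated, 212 and 203 at 0.5 h, 218 and 221 at 1 h, 191 and 149 at 3 h and 115 and 103 at 8 h. In RelA-TA-KI cells it stood at 155 and 122, 218 and 175, 233 and 213, 218 and 175 and 82.9 and 47.3 CPM. By their means both courses were highest at 1 h and lowest at 8 h, where the fall was called in WT (log2 fold change -0.73, SE 0.21, adjusted p = 0.0209) and in RelA-TA-KI cells (log2 fold change -1.09, SE 0.21, adjusted p = 0.000985). The WT call of Insig1 was lost without untreated replicate 1 (-0.61, adjusted p = 0.122), 8 h replicate 1 (-0.81, adjusted p = 0.0597) or 8 h replicate 2 (-0.66, adjusted p = 0.126).

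Insig2 was the only member whose response at 8 h was called different between the genotypes, where 6.87% of all genes were. WT libraries were at 52.8 and 49.0 CPM untreated, 66.5 and 58.8 at 3 h and 61.0 and 60.2 at 8 h. RelA-TA-KI libraries were at 45.8 and 41.7, 64.7 and 73.4 and 84.3 and 82.6 CPM at these times. At 8 h both RelA-TA-KI libraries were above all 10 WT libraries of the course, while the untreated ones were below all of them. The rise was called at 3 h in both genotypes (log2 fold change 0.30, SE 0.09, adjusted p = 0.0318 and log2 fold change 0.66, SE 0.09, adjusted p = 0.00025) and at 8 h in RelA-TA-KI cells (log2 fold change 0.93, SE 0.09, adjusted p = 1.88e-06), with WT at 8 h just outside (log2 fold change 0.25, SE 0.09, adjusted p = 0.0546). The difference of the responses at 8 h was 0.68 (SE 0.12, adjusted p = 0.00571), and 0.62 with adjusted p = 0.194 without replicate 2 at all RelA-TA-KI times. With the replicate block within genotype, 12 responses differed at 8 h (21.2% of all genes), 3 of them higher in RelA-TA-KI cells and 9 lower. Without RelA-TA-KI 8 h replicate 1 the count was 8, and without its replicate 2 or WT 8 h replicate 1 it was 2.

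Srebf1, which drives mainly fatty acid genes, fell at 8 h in both genotypes. Over the whole course it lay within 104 to 130.0 CPM in WT and 81.8 to 134 CPM in RelA-TA-KI libraries, lowest at 3 and 8 h in WT and at 8 h in RelA-TA-KI cells. It went from 129 and 129.7 to 105 and 109 CPM in WT (log2 fold change -0.27, SE 0.08, adjusted p = 0.0217; at 3 h -0.27, adjusted p = 0.0303) and from 134 and 115 to 89.8 and 81.8 CPM in RelA-TA-KI cells (log2 fold change -0.54, SE 0.08, adjusted p = 8.87e-05). Srebf2, which drives mainly cholesterol genes, stayed within 292 to 354 CPM in all 10 WT libraries, with no call. In RelA-TA-KI cells it was at 293 and 273 CPM untreated, 326 and 292 at 0.5 h, 331 and 318 at 1 h, 346 and 354 at 3 h (log2 fold change 0.31, SE 0.09, adjusted p = 0.0269) and 266 and 216 at 8 h (log2 fold change -0.23, SE 0.09, adjusted p = 0.0486). That last call was kept in 3 of 27 alternative fits. Scap was higher in RelA-TA-KI cells at 8 h (log2 fold change 0.28, SE 0.06, adjusted p = 0.00242), at 103 and 113 CPM against 87.3 and 90.6 untreated.

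Of the LXR genes, Abcg1 rose at 8 h of TNF in both genotypes and Nr1h3 in RelA-TA-KI cells. Abcg1, an exporter of cholesterol to lipoproteins, went from 12.0 and 14.8 to 21.9 and 27.5 CPM in WT (log2 fold change 0.87, SE 0.24, adjusted p = 0.0204) and from 17.6 and 20.5 to 28.4 and 47.9 CPM in RelA-TA-KI cells (log2 fold change 1.00, SE 0.23, adjusted p = 0.00301). Nr1h3 stood at 1.84 and 1.39 CPM untreated and 4.40 and 14.9 CPM at 8 h in RelA-TA-KI cells (log2 fold change 2.58, SE 0.56, adjusted p = 0.00219), the second library alone reaching 14.9 CPM, and at 1.30 and 1.81 and 1.54 and 1.89 CPM in WT (log2 fold change 0.11, SE 0.68, adjusted p = 0.939). Without RelA-TA-KI 8 h replicate 2 both calls were lost, Nr1h3 at 1.44, adjusted p = 0.0666 and Abcg1 at 0.58, adjusted p = 0.071. That library also had the highest macrophage marker sum of the table, 4381 CPM, against 2342 CPM in its partner, 1689 and 2842 CPM in untreated RelA-TA-KI cells and 1440 and 2290 CPM in WT cells at 8 h. Of the 16 macrophage markers 1 (Lyz2) was called higher in RelA-TA-KI cells at 8 h, and their part in these changes was not tested.

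Abca1, the pump that loads cholesterol onto lipoprotein, ranged over 90.5 to 233 CPM in WT and 99.1 to 307 CPM in RelA-TA-KI libraries and was called at no time. At 8 h it was at 120.0 and 233 CPM in WT (log2 fold change 0.53, SE 0.31, adjusted p = 0.27) and 196 and 307 CPM in RelA-TA-KI cells (log2 fold change 0.55, SE 0.31, adjusted p = 0.166), the pairs of replicates lying far apart. Mylip, a ubiquitin ligase that lowers lipoprotein uptake, fell in RelA-TA-KI cells from 54.2 and 60.3 CPM untreated to 20.6 and 25.2 at 3 h (log2 fold change -1.32, SE 0.28, adjusted p = 0.00538) and 15.6 and 24.3 at 8 h (log2 fold change -1.51, SE 0.28, adjusted p = 0.000687). In WT cells it went from 31.3 and 49.4 to 19.9 and 28.5 CPM, without a call (log2 fold change -0.75, SE 0.28, adjusted p = 0.0755). Nr1h2, the other LXR receptor, was at 49.1 to 61.4 CPM in WT and 40.9 to 53.1 CPM in RelA-TA-KI libraries and was not called.

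Both stearoyl-CoA desaturases, which make monounsaturated fatty acids, fell at 8 h of TNF in both genotypes. Scd2 went from 3568 and 3415 to 2540.0 and 2276 CPM in WT (log2 fold change -0.54, SE 0.16, adjusted p = 0.0319) and from 3485 and 2782 to 2005 and 1235 CPM in RelA-TA-KI cells (log2 fold change -0.95, SE 0.17, adjusted p = 0.000402). Scd1 went from 822 and 815 to 529.7 and 487 CPM in WT (log2 fold change -0.69, SE 0.17, adjusted p = 0.00868) and from 839.9 and 584 to 545 and 388 CPM in RelA-TA-KI cells (log2 fold change -0.61, SE 0.17, adjusted p = 0.00901). All 8 h libraries were below the untreated ones of their genotype. Fasn, fatty acid synthase, was at 387 and 391 CPM in WT (log2 fold change -0.44, SE 0.19, adjusted p = 0.127) and 508 and 339 CPM in RelA-TA-KI cells (log2 fold change -0.02, SE 0.19, adjusted p = 0.955), and the latter overlapped its untreated values of 493 and 363 CPM. The 2 desaturases share 145 windows of 50 bases, 4.56% of the windows of Scd1 and 3.97% of those of Scd2 being found in other genes.

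Between the genotypes, no member differed in untreated cells, where 1 of 13843 genes did (0.00722%). By unadjusted p below 0.05 there were 5 members (Hsd17b7, Lss, Mvk, Mvd and Insig2), all lower in RelA-TA-KI cells. Of all 13843 genes 1280 were below 0.05 too, 762 of them lower. DESeq2 called 0 members. All 18 synthesis genes were below 0, with a median of -0.33. Averaged over the 5 times, 4 members were called (4.56% of all genes higher, 5.54% lower). Here too the times were taken as independent samples of a genotype, so the p-values may be too small. Abcg1 was higher in RelA-TA-KI cells (log2 fold change 0.45, SE 0.11, adjusted p = 0.0205), and Ch25h, Mvd (log2 fold change -0.28, SE 0.07, adjusted p = 0.0268) and Mvk (log2 fold change -0.27, SE 0.08, adjusted p = 0.0499) were lower. The macrophage markers were above 0 in all 16 cases in this average, 4 of them called, and their part in the Abcg1 difference was not tested. Leaving out 9 single libraries in turn moved this count beyond 1.5 times: it was 19 without RelA-TA-KI 8 h replicate 1, 1 without RelA-TA-KI 0.5, 1 or 3 h replicate 2, and 2 without WT untreated, 0.5 h or 8 h replicate 1 or WT 0.5 or 1 h replicate 2. Without replicate 2 at all RelA-TA-KI times it was 1. At 0.5 and 1 h no member's response was called different, by edgeR (0.0506% and 0.311% of all genes) or by DESeq2. An unadjusted p below 0.05 was found for 1 member at each, and for 328 and 524 of all 13843 genes.

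Beyond the 33 members, 48 other genes of the pathway had been listed, of which 47 were tested. After 3 h of TNF, 4 rose and 2 fell in WT cells (9.32% and 6.36% of all genes) and 9 rose and 2 fell in RelA-TA-KI cells (10.9% and 8.08%). Cyp27a1, which makes another oxysterol, fell in WT cells at 3 h (log2 fold change -1.28, SE 0.41, adjusted p = 0.0464), and the phosphatidate phosphatase gene Lpin1 rose in RelA-TA-KI cells (log2 fold change 1.02, SE 0.23, adjusted p = 0.00922). After 8 h of TNF, 4 rose and 6 fell in WT cells (12% and 8.8% of all genes), and 7 rose and 14 fell in RelA-TA-KI cells (21.6% and 20.5%). In WT cells Cyp7b1, a hydroxylase that degrades oxysterols, rose (log2 fold change 1.40, SE 0.28, adjusted p = 0.0026), while Acss2, acetyl-CoA synthetase (-0.82), and the desaturases Fads1 (-0.44) and Fads2 (-0.42) fell. In RelA-TA-KI cells Acacb, an acetyl-CoA carboxylase (log2 fold change -1.60, SE 0.35, adjusted p = 0.00236), and Acss2 (-0.86) fell. The LXR target Arl4c rose in both, by 0.60 and 1.56, and Ube2g2, a ubiquitin-conjugating enzyme of reticulum-bound protein degradation, in RelA-TA-KI cells (0.92). The responses of 5 of the 47 were called different between the genotypes at 8 h (6.87% of all genes). Cyp7b1 was lower in RelA-TA-KI cells (-1.92, SE 0.41, adjusted p = 0.013), as was Gramd1a (-0.50), and Arl4c (0.96), the cholesterol esterifying enzyme Soat1 (0.72) and Ube2g2 (0.53) were higher.

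In the second table, of LPS and Poly(I:C), each genotype and condition had 1 library, so the test compared conditions over the 2 genotypes together and its p-values rest on how the genotype difference varied between conditions. A difference between the genotypes in 1 condition has no test there. Ch25h showed the largest rise of the 33 members under both agents. In WT cells it went from 5.30 CPM untreated to 11.7, 44.2, 419 and 478 CPM at 0.5, 1, 3 and 8 h of LPS. In RelA-TA-KI cells it went from 5.20 CPM to 11.5, 12.2, 295 and 279.9 CPM. The WT values with Poly(I:C) were 3.09, 6.00, 107 and 217 CPM and the RelA-TA-KI values 8.61, 4.73, 174 and 212 CPM. The steep rise lay between 1 and 3 h for both agents, and at 1 h of LPS the WT library was already well above the RelA-TA-KI one. It was 67.3-fold at 3 h of LPS (log2 fold change 6.07, SE 0.59, adjusted p = 7.78e-06) and 27.4-fold at 3 h of Poly(I:C) (log2 fold change 4.77, SE 0.57, adjusted p = 8.85e-05). At 8 h the values were 6.15 for LPS and 5.35 for Poly(I:C), and their difference was not called (0.79, SE 0.45, adjusted p = 0.263). Over the whole table the macrophage marker sum stayed within 3769 to 6323 CPM, and its part in these rises was not tested.

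**Figure D3:**
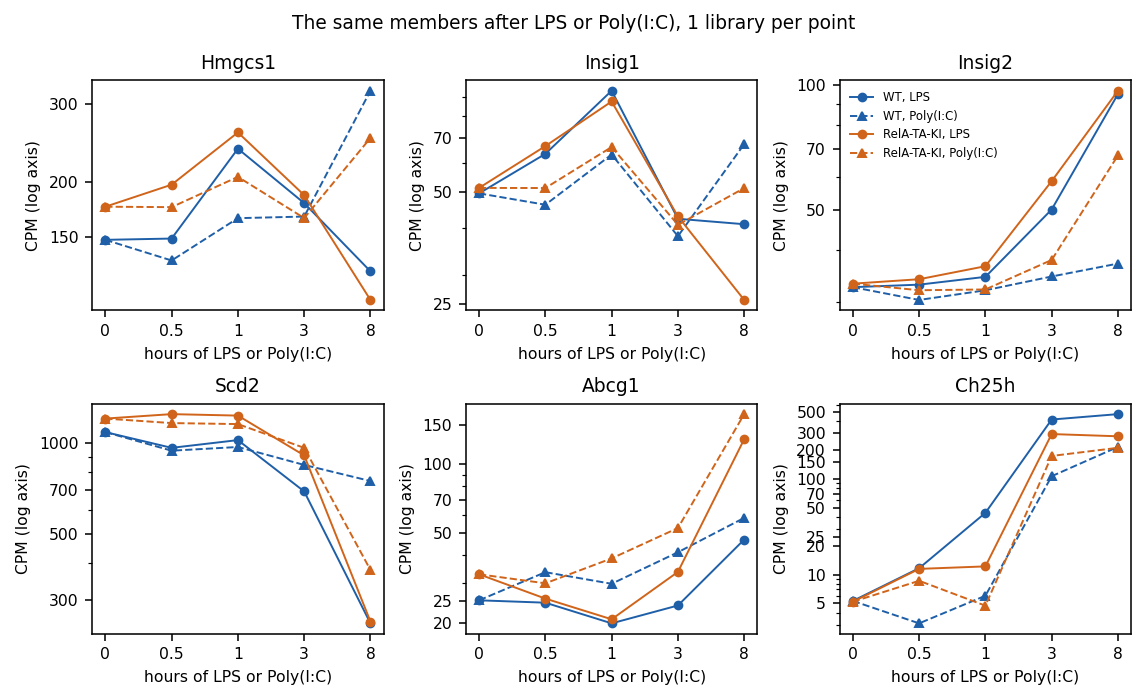
CPM of the 6 members of the TNF plot in every library of the second table, on a log axis, against hours of treatment (times spaced evenly), 1 library a point and the untreated library drawn at 0 for both agents. Scd2 falls to 251 and 255 CPM at 8 h of LPS, and Hmgcs1 at 8 h is higher with Poly(I:C) (322 and 252 CPM) than with LPS (126 and 108 CPM).

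At 3 h of LPS 6 members rose and 1 fell (22.5% and 22.2% of all genes). Besides Ch25h these were Hsd17b7 (log2 fold change 0.81, SE 0.17, adjusted p = 0.00207), Cyp51 (0.73), Insig2 (0.72), Srebf2 (log2 fold change 0.66, SE 0.18, adjusted p = 0.0107) and Nr1h2 (0.38), and Fasn fell (-0.48). Srebf2 was at 134 and 147 CPM in untreated WT and RelA-TA-KI cells and 239 and 205 CPM at 3 h, the highest of each genotype's LPS course. The count was 3 without WT LPS 3 h or the untreated RelA-TA-KI library and 11 without either Poly(I:C) 8 h library. Ch25h and Hsd17b7 kept their calls when each of the 18 libraries was left out in turn, and the other 5 reached adjusted p of 0.0528 to 0.127. At 3 h of Poly(I:C) Ch25h alone was called (11% of all genes higher). That count was 2 without either LPS 8 h library and 3 without either Poly(I:C) 8 h library.

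At 8 h the synthesis genes stood lower with LPS than with Poly(I:C). With LPS 10 of the 18 fell and 1, Cyp51, rose, with a median of -0.67 (all genes -0.06). Under Poly(I:C) 5 rose and none fell, with a median of 0.24 (all genes -0.04). Over the 33 members 6 were higher and 14 lower with LPS than untreated (30.4% and 32.3% of all genes). With Poly(I:C) 10 were higher and 2 lower than untreated (24.9% and 24.9%). Tested directly, 11 of the 18 were lower with LPS than with Poly(I:C) and none higher, with all 18 below 0 and a median of -1.08. Over all 33 members 14 were lower and 2 higher (6.48% and 6.39% of all genes). That count of 16 was 7 without the WT LPS 8 h library and 5 without the WT Poly(I:C) 8 h library. When each of the 18 libraries was left out in turn, Hmgcs1 and Fdft1 kept their calls between the agents throughout, and the other 14 reached adjusted p of 0.0627 to 0.527. Against untreated cells, 12 of the 20 LPS calls and 7 of the 12 Poly(I:C) calls were kept throughout, and the others reached 0.058 to 0.353 and 0.0531 to 0.309.

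In the mevalonate arm, Hmgcs1 stood at 148 CPM in untreated WT cells, 126 at 8 h of LPS and 322 at 8 h of Poly(I:C). The RelA-TA-KI values were 176, 108 and 252 CPM. Both genotypes were thus below untreated with LPS (log2 fold change -0.46, SE 0.17, adjusted p = 0.0317) and above it with Poly(I:C) (log2 fold change 0.84, SE 0.17, adjusted p = 0.00165), and the agents differed (log2 fold change -1.30, SE 0.17, adjusted p = 0.00133). The call against untreated cells with LPS was lost without RelA-TA-KI LPS 8 h (-0.30, adjusted p = 0.22) or either untreated library. At 0.5, 1 and 3 h of LPS Hmgcs1 was at 149, 238 and 179 CPM in WT and 197, 259 and 187 CPM in RelA-TA-KI cells. The Poly(I:C) values were 133, 166 and 167 CPM and 175, 205 and 166 CPM. Mvk, mevalonate kinase (-1.51), Mvd (-1.47), Acat2 (-1.39) and Pmvk (-1.06) fell with LPS and were not called with Poly(I:C), at -0.19, -0.27, -0.32 and -0.23. Of these, Mvk and Pmvk were called lower with LPS than with Poly(I:C), as was Fdps (log2 fold change -1.46, SE 0.44, adjusted p = 0.0493). The Fdps call was kept in 3 of 21 alternative fits, and was lost without any of 17 of the 18 libraries, reaching an adjusted p of 0.426.

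In the sterol arm, Dhcr7 stood at 25.2 and 26.2 CPM in untreated WT and RelA-TA-KI cells and at 7.89 and 8.44 CPM after 8 h of LPS (log2 fold change -1.65, SE 0.33, adjusted p = 0.000866). Lss, the cyclase that makes lanosterol, went from 34.0 and 40.4 to 14.1 and 12.4 CPM (log2 fold change -1.49, SE 0.30, adjusted p = 0.00094). Tm7sf2 (-1.08), Ebp (-0.69) and Sqle (-0.59) also fell with LPS. Hsd17b7 rose with Poly(I:C) (log2 fold change 0.93, SE 0.17, adjusted p = 0.000859), from 27.9 and 31.9 to 55.3 and 57.5 CPM. Cyp51 (0.83), Fdft1 (0.76) and Msmo1, a sterol methyl oxidase (0.68), rose with it. Cyp51 also rose with LPS (log2 fold change 0.69, SE 0.22, adjusted p = 0.0149), from 95.8 and 115 to 198 and 137 CPM, and that call was lost without WT LPS 8 h (0.25, adjusted p = 0.29) or the untreated WT library (0.62, adjusted p = 0.09). Sqle kept its call with LPS in 12 of 21 alternative fits.

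Within Poly(I:C) at 8 h more synthesis genes lay above untreated in the WT library than in the RelA-TA-KI library. In WT cells 17 of the 18 were above the untreated library, with a median log2 ratio of 0.65, and in RelA-TA-KI cells 8 were above and 10 below, with a median of -0.27. These are ratios of 1 library to 1 library with a prior count of 2, and have no test. By a 2-fold difference in level, 6 members were lower and 2 higher in the RelA-TA-KI than in the WT library (3.91% and 5.56% of the genes with 5 CPM in either library). Lss was at 49.4 CPM in WT and 22.6 CPM in RelA-TA-KI cells. Dhcr7 was at 32.5 and 13.2 CPM, and Acat2 at 23.4 and 9.40 CPM. That RelA-TA-KI library also had the highest sum in the second table for 5 of the 6 marker lists, all but skeletal muscle. Fibroblast markers summed to 81260 CPM in it and 47600 CPM in the WT library, macrophage markers to 6323 and 5230 CPM, adipocyte markers to 55.0 and 39.5 CPM and epithelial markers to 21.8 and 6.49 CPM. Endothelial markers summed to 768 and 149 CPM, and of the first value 757 CPM came from Kdr alone. The part of these markers in the differences was not tested. With LPS at 8 h the medians were -0.65 in WT and -0.75 in RelA-TA-KI cells. In the other conditions the RelA-TA-KI library was mostly the higher one: it was above the WT library for 15 of the 18 untreated, for 18, 18 and 16 at 0.5, 1 and 3 h of LPS and for 17, 17 and 11 at 0.5, 1 and 3 h of Poly(I:C), against 7 at 8 h of LPS and 1 at 8 h of Poly(I:C).

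Of the SREBP genes, Insig1 was at 49.6 and 51.3 CPM untreated and 93.7 and 87.6 CPM at 1 h of LPS, the highest of each LPS course. The levels at 1 h of Poly(I:C) were 63.1 and 66.1 CPM. At 8 h it was at 41.0 and 25.6 CPM with LPS (log2 fold change -0.61, SE 0.17, adjusted p = 0.00921) and 67.3 and 51.2 CPM with Poly(I:C) (log2 fold change 0.23, SE 0.17, adjusted p = 0.277). The LPS call was lost without RelA-TA-KI LPS 8 h (-0.31, adjusted p = 0.105) or the untreated RelA-TA-KI library (-0.55, adjusted p = 0.0554). Insig2 moved the other way with LPS, from 32.6 and 33.2 CPM to 95.2 and 97.0 CPM (log2 fold change 1.54, SE 0.17, adjusted p = 1.21e-05). With Poly(I:C) Insig2 reached 37.2 CPM in WT and 67.7 CPM in RelA-TA-KI cells (log2 fold change 0.65, SE 0.17, adjusted p = 0.0085), and that call was lost without this RelA-TA-KI library (0.20, adjusted p = 0.167) or the untreated one (0.57, adjusted p = 0.0754). LPS was higher than Poly(I:C) (log2 fold change 0.89, SE 0.17, adjusted p = 0.00754). Srebf1 was at 88.5 and 68.6 CPM at 8 h of LPS against 73.5 and 67.9 CPM untreated (log2 fold change 0.15, SE 0.11, adjusted p = 0.255), and Srebf2 at 161 and 123 CPM (log2 fold change 0.02, SE 0.18, adjusted p = 0.937). Over all 9 conditions Srebf1 lay within 58.9 to 88.5 CPM in WT and 58.3 to 73.5 CPM in RelA-TA-KI libraries, and Srebf2 within 113 to 239 and 123 to 205 CPM. With Poly(I:C) at 8 h they were at 0.09 and 0.40, neither called, and Scap was called nowhere in this table. Stard4 was at 61.2 CPM in WT and 27.1 CPM in RelA-TA-KI cells at 8 h of LPS against 35.3 and 36.0 CPM untreated, and was not called.

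**Figure D4:**
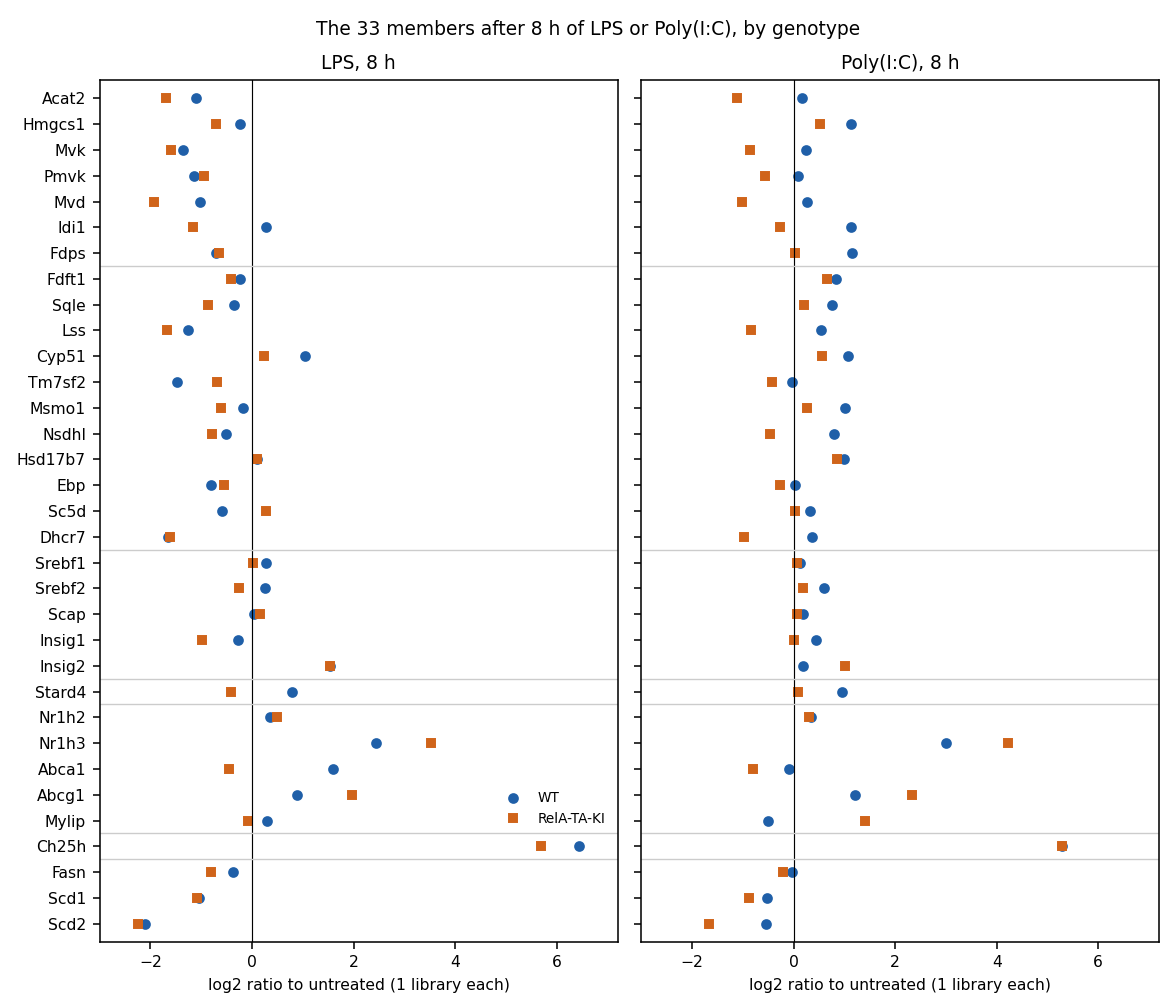
Log2 ratio of each of the 33 members at 8 h of LPS (left) and Poly(I:C) (right) to the untreated library of the same genotype, WT as circles and RelA-TA-KI as squares, 1 library each and so without error bars. With Poly(I:C) 17 of the 18 synthesis genes lie above 0 in WT and 8 in RelA-TA-KI cells, while with LPS 3 lie above 0 in each.

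Nr1h3, Abcg1 and Nr1h2 rose at 8 h with both agents, Nr1h2 the least. With each of the 18 libraries left out in turn, the log2 fold change of Nr1h2 was 0.33 to 0.50 with LPS. With Poly(I:C) it was 0.22 to 0.41, and the Nr1h2 call was not kept throughout with either agent. Nr1h3 was at 2.34 and 1.67 CPM untreated, 13.7 and 21.8 CPM with LPS (log2 fold change 3.13, SE 0.39, adjusted p = 2.61e-05) and 20.5 and 35.1 CPM with Poly(I:C) (log2 fold change 3.77, SE 0.38, adjusted p = 9.23e-06). Abcg1 was at 25.1 and 32.8 CPM untreated. It reached 46.6 CPM in WT and 129 CPM in RelA-TA-KI cells with LPS (log2 fold change 1.52, SE 0.36, adjusted p = 0.00284), and 58.1 and 167 CPM with Poly(I:C) (log2 fold change 1.87, SE 0.36, adjusted p = 0.00121). The RelA-TA-KI library was the higher of the 2 with each agent, and without RelA-TA-KI LPS 8 h the LPS call was lost (0.89, adjusted p = 0.0669). Macrophage marker sums at 8 h were 4899 and 5102 CPM with LPS and 5230 and 6323 CPM with Poly(I:C), against 4735 and 4164 CPM untreated, WT first in each pair. Of the 16 markers 7 were called higher and 5 lower at 8 h of LPS (30.4% and 32.3% of all genes), and 8 higher and 1 lower at 8 h of Poly(I:C) (24.9% and 24.9%), and their part in the LXR results was not tested.

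Abca1 was highest in the WT library of 8 h of LPS. It was at 200.4 CPM untreated, 239 at 0.5 h, 306 at 1 h, 256 at 3 h and 604 CPM at 8 h of LPS in WT cells. The RelA-TA-KI values were 244 CPM untreated and 198, 259, 154 and 179 CPM. With Poly(I:C) WT cells were highest at 1 h, at 412 CPM, and at 188 CPM at 8 h, and RelA-TA-KI cells were at 141 CPM at 8 h. Abca1 was not called with LPS (log2 fold change 0.67, SE 0.33, adjusted p = 0.0999) or Poly(I:C) (log2 fold change -0.49, SE 0.33, adjusted p = 0.239) against untreated cells, and was higher with LPS than with Poly(I:C) (log2 fold change 1.16, SE 0.34, adjusted p = 0.0432). That call was kept in 6 of 21 alternative fits and was 0.29, adjusted p = 0.527 without the WT LPS 8 h library. Mylip was at 49.9 CPM in WT and 159.7 CPM in RelA-TA-KI cells at 8 h of Poly(I:C), against 70.7 and 60.1 CPM untreated, and was called in no comparison of this table.

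Scd2 fell furthest of the 33 members with LPS, from 1090.0 and 1209 to 251 and 255 CPM (log2 fold change -2.18, SE 0.27, adjusted p = 2.44e-05). Under Poly(I:C) it went to 749 CPM in WT and 378 CPM in RelA-TA-KI cells (log2 fold change -1.01, SE 0.26, adjusted p = 0.00678), less than with LPS (log2 fold change -1.17, SE 0.26, adjusted p = 0.0145). Scd1 fell with LPS (log2 fold change -1.06, SE 0.13, adjusted p = 2.75e-05) and Poly(I:C) (log2 fold change -0.69, SE 0.13, adjusted p = 0.00112), to 98.4 and 94.7 CPM and 142 and 108 CPM from 203 and 200.3 CPM. Fasn fell with LPS (log2 fold change -0.59, SE 0.12, adjusted p = 0.00112) and was at -0.12, not called, with Poly(I:C). The desaturases thus fell with both agents at 8 h, while the 5 calls among the 18 synthesis genes with Poly(I:C) were all higher.

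Over the 9 conditions of this table, 2 members were higher in RelA-TA-KI than in WT cells, where 7.62% of all genes were, and none was lower. The 9 libraries of a genotype were taken as independent samples here. Whether they came from separate embryos or cultures is not given, so the p-values may be too small. Hsd17b7 (log2 fold change 0.44, SE 0.08, adjusted p = 0.00293) was above its WT partner in each of the 9 conditions, and Ebp (log2 fold change 0.25, SE 0.06, adjusted p = 0.02), the sterol isomerase, in 8 of 9. Abca1 was at -0.47 (adjusted p = 0.0648) and Ch25h at -0.23 (adjusted p = 0.581). The TNF course differed: mean Hsd17b7 was 101 CPM in untreated RelA-TA-KI and 158 CPM in untreated WT cells. By its means it was also lower in RelA-TA-KI cells at 0.5, 1 and 8 h, and higher at 3 h. Mean Ebp was lower untreated and higher at each TNF time. Untreated synthesis genes lay below WT in that course and mostly above it here. The count was 8 without either Poly(I:C) 8 h library, 4 without either LPS 8 h library and 1 without either library of LPS at 0.5 or 1 h, where Ebp reached an adjusted p of 0.0576.

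Of the other 47 genes of the pathway tested, 14 rose and 18 fell at 8 h of LPS (30.4% and 32.3% of all genes), and 10 rose and 13 fell at 8 h of Poly(I:C) (24.9% and 24.9%). Together the shares called lie near those of all genes. Rnf139, a ubiquitin ligase of the reticulum that acts on SREBP processing, rose with LPS (1.87) and Poly(I:C) (1.72), as did the sterol transporter Stard3 (1.83 and 1.60). Rxra, the partner receptor of LXR, fell with both (-2.00 and -1.37). Lpin1 (-2.51) and Fads1 (-1.94) fell with LPS, Cyp7b1 rose with it (2.15), and Npc2, which hands cholesterol out of lysosomes, rose with Poly(I:C) (1.27). Between the agents 3 of the 47 were higher with LPS and 9 lower (6.39% and 6.48% of all genes), with Cyp7b1 among the higher (1.92).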

How the data were processed

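Messenger RNA of 38 fibroblast samples (28 groups, 10 of 2 samples and 18 of 1) was sequenced as single 50-base reads with the KAPA Stranded mRNA kit, per the labels' protocols. The authors deposited 2 tables of raw counts per gene. The submitters' processing notes name genome build mm10, cutadapt 1.9.1, STAR, featureCounts 1.4.6 and DESeq2; the annotation release, strand setting and treatment of reads with several matches are not given in the sources used here. No normalization had been applied to the deposited counts, and 45143 of 45706 gene identifiers were given a symbol from GENCODE M21.

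From the counts, edgeR 4.0.16 (R 4.3.3) computed TMM-scaled CPM and quasi-likelihood tests after its expression filter. The TNF table was fitted with 1 mean per group (13843 genes, 10 residual degrees of freedom). The other table was fitted with condition and genotype as additive terms (13759 genes, 8 residual degrees of freedom). A gene was called at a Benjamini-Hochberg adjusted p of 0.05 over all genes tested, and all 33 members were tested in both tables. The biological coefficient of variation was 10.2% and 12.8%. Log2 ratios of single libraries used a prior count of 2 and were counted as changed from 2-fold, where 1 of the libraries reached 5 CPM. No column was left out.

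Deviations from group means correlated at 0.161 to 0.529 between same-numbered groups of WT cells and at 0.161 to 0.37 between those of RelA-TA-KI cells, 10 pairs in each. They correlated at 0.006 to 0.338 in the 25 pairs across genotypes. The numbers, which come from the sample titles, were therefore used as a block within genotype, as an alternative. A block across genotypes was fitted too. Other alternatives were DESeq2 1.42.0, its size factors, no expression filter, a fit of only the groups compared, and leaving out libraries. The scripts were tested on simulated data.

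The members and all lists were chosen with earlier results of these data known. By the rule for naming genes, all calls were named where 8 or fewer members were called, and otherwise the 8 largest with the largest of each role group; Ch25h, Insig1, Srebf1, Srebf2, Abca1 and Hmgcs1 were described whatever their calls, and of the other genes of the pathway at most 6 per comparison were named, the largest among those called. A gene that this rule would name is not reported here. Other genes are named where a sentence accounts for a whole role group.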

Additional observations from a re-analysis of the deposited data

Results flagged for a closer look

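Insig2 was flagged because its response to 8 h of TNF differed between the genotypes by the test of that difference, 0.68 on the log2 scale. WT libraries were at 61.0 and 60.2 CPM and RelA-TA-KI libraries at 84.3 and 82.6 CPM. The same test called 6.87% of all genes and 1 of the 33 members, so the count does not set the members apart.

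At 8 h of Poly(I:C) the log2 ratios of 11 of the 33 members had opposite signs in the single libraries of the genotypes, above 0 in WT for 10 of them. In 2 of the 11 both ratios were at least 0.5 from 0, and these differences were not tested. How many of all genes had opposite signs was not counted, so the 11 do not set the members apart. Lss was at a log2 ratio to untreated of 0.54 in WT and -0.83 in RelA-TA-KI cells, a difference of -1.37. Mylip was at -0.50 in WT and 1.41 in RelA-TA-KI cells, a difference of 1.91.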

How the results depend on the processing

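The 111 called values of single genes were refitted under all alternatives, 2641 fits in all. The call was kept in 2359 and lost in 282, no direction was reversed, and 41 of the 111 were kept in every alternative. A group had at most 2 libraries, and Nr1h3 and Idi1 had the lowest median CPM of the members in both tables. What more depth or replicates would change was not tested. DESeq2's size factors moved the median of all genes by at most 0.046.

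Counts of members called, in the order used above, moved as follows, and the cause was not tested. Shares of all genes called were counted only for the main fit and the block within genotype. Under the other settings a move of the members cannot be told from a move of all genes. Without an expression filter the member counts were 2, 4, 6 and 23 in WT cells at 0.5, 1, 3 and 8 h of TNF (1, 1, 3 and 9 with it), 18, 18 and 22 in RelA-TA-KI cells at 0.5, 1 and 3 h (1, 0 and 10), and 14 and 22 between genotypes, untreated and averaged (0 and 4). They were then 1, 2, 7 and 11 for the differences of responses (0, 0, 0 and 1) and 4 between genotypes over the LPS and Poly(I:C) table (2). With DESeq2 they were 1 in WT at 3 h, 2 in RelA-TA-KI at 1 h and 4 between genotypes over the LPS and Poly(I:C) table. Fitting only the groups compared gave 1 in WT at 3 h and 2 and 3 in RelA-TA-KI at 0.5 and 1 h. With the replicate block across genotypes, where the numbers are only shared, counts were 2, 3, 8 and 24 in WT, 16, 15 and 23 in RelA-TA-KI at 0.5, 1 and 3 h, 8 and 21 between genotypes, and 4 and 6 for the differences at 3 and 8 h. With the replicate block within genotype they were 2, 3, 10 and 25 in WT, 19, 17 and 23 in RelA-TA-KI, and 6 and 12 for those differences. Without replicate 2 at all RelA-TA-KI times, an alternative chosen after seeing the data, counts were 0, 0 and 12 in RelA-TA-KI at 0.5, 3 and 8 h, 1 between genotypes on average and 0 for the difference at 8 h.

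Leaving out each library in turn gave 1 to 1, 1 to 1, 1 to 5 and 2 to 12 in WT cells and 0 to 1, 0 to 3, 2 to 17 and 12 to 27 in RelA-TA-KI cells. It gave 0 to 0 and 1 to 19 between genotypes, 0 to 0 for the differences at 0.5, 1 and 3 h and 1 to 8 at 8 h. In the other table it gave 3 to 11 and 17 to 22 for LPS at 3 and 8 h, 1 to 3 and 8 to 15 for Poly(I:C), 5 to 20 between the agents and 1 to 8 between genotypes.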
